A study of Mus musculus with 4 samples.

Results

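The genes described here encode dioxygenases that need ferrous iron and 2-oxoglutarate and that act, in most cases, on chromatin, nucleic acids or proteins of the nucleus. They were chosen by symbol: 33 genes with a JmjC domain, of the TET family or of the AlkB family, taken from 18193 gene symbols to which the array's annotation ties at least 1 probe set without a second symbol. All 33 had such a probe set, 21 of them JmjC genes, 3 TET genes and 9 AlkB genes. Where a gene had several, the one with the highest mean signal over the 4 pools stands for it, and the others serve as a check. RNA was measured in embryonic day 15 kidneys of C57BL/6 mice. The iron-deficient group came from dams fed a diet with 2 to 6 ppm iron, and the control group from dams fed a diet with 220 ppm iron, in both cases for 3 weeks before gestation and on through pregnancy. Dams were 8 weeks old when they were divided between the diets, and both groups were mated with C57BL/6 males. There were 2 pools per diet, each of 16 kidneys, and every pool went onto its own Affymetrix Mouse Genome array. Whether the pools of a diet stem from separate litters is not in the labels, so the spread behind the p-values is that of these pools alone and may be technical.

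Enzymes of this superfamily bind ferrous iron in the active site and couple the breakdown of 2-oxoglutarate and oxygen to the oxidation of a substrate. Most JmjC proteins oxidise methyl groups on histone lysines and so remove them, TET proteins oxidise 5-methylcytosine in DNA, and AlkB proteins oxidise methyl groups on RNA, DNA or protein. In cultured cells Kdm3a and Kdm4b are known targets of the hypoxia-inducible factors. The array reports transcript signals and says nothing of enzyme activity or of the iron bound to the proteins.

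Of the 33 genes, 32 were bright enough to be tested, and those 32 read above the array background in all 4 pools. Background was taken for each array as the highest of 27 bacterial control probe sets, which gave 14.4 and 13.3 in the iron-deficient pools and 8.5 and 8.2 in the control pools. The exception was Kdm4d, a demethylase best known from testis, with signals of 3.6 and 4.5 in the iron-deficient pools and 4.8 and 8.4 in the control pools. It passed background in 1 pool only and is not taken further. The kidney markers Pax8, Wt1, Six2, Sall1, Lhx1, Ret, Wnt11 and Emx2 were above background in all pools. The 4 arrays were not equally alike. Across tested probe sets the log2 signals of iron-deficient pool 1 correlated with those of the other arrays at 0.883 to 0.913, whereas the control pools reached 0.978 with each other (probe sets are not independent). Its 5′ probe set for 18S ribosomal RNA read 2144.5, against 243 in iron-deficient pool 2 and 291.9 and 289.4 in the control pools. The bacterial bioB spikes averaged 935.2 and 616.2 in the iron-deficient pools and 441.8 and 545.7 in the control pools. With 2 arrays per diet, the number of arrays limits the precision of each value.

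No dioxygenase gene passed the test between diets. By limma with Benjamini-Hochberg adjustment over all 27022 tested probe sets, adjusted p lay between 0.852 and 0.976 for the 32 genes, and 0 of them were called at 0.05, where 0% of all tested probe sets were called. None reached an unadjusted p of 0.05 either by the probe set that stands for it. Dimmer probe sets of Tet1 (limma unadjusted p = 0.0374) and Kdm7a (0.0457) did, both with a limma adjusted p of 0.852. Over all tested probe sets, 3.96% passed that limit, 1.14% as higher and 2.81% as lower; with 1 probe set per gene symbol the shares were 4.58%, 1.26% and 3.32%. Both iron-deficient signals exceeded both control signals for 9 of the 32 genes, against 11.8% of all tested probe sets and 13% with 1 probe set per gene. Both were under both control signals for 4, against 25% and 25.9%. With median-centred arrays these counts were 11 and 1, but the shares of all probe sets were not counted under that setting. The 9 genes were Kdm7a, Kdm3a, Kdm5a, Kdm5b, Kdm5c, Kdm6b, Tet2, Tet3 and Alkbh5, and the 4 were Jmjd4, Hspbap1, Alkbh2 and Alkbh7. The median log2 difference, iron-deficient minus control, was 0.19 over the 32 genes and -0.10 over all tested probe sets. It was 0.24 for the 20 tested JmjC genes, 0.43 for the 3 TET genes and -0.28 for the 9 AlkB genes. In the plot of signals by pool, iron-deficient pool 1 is the point farthest from the control mean for most genes. It lay farther from that mean than pool 2 did for 28 of 32 genes, and for 74.6% of all tested probe sets.

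**Figure D1:**
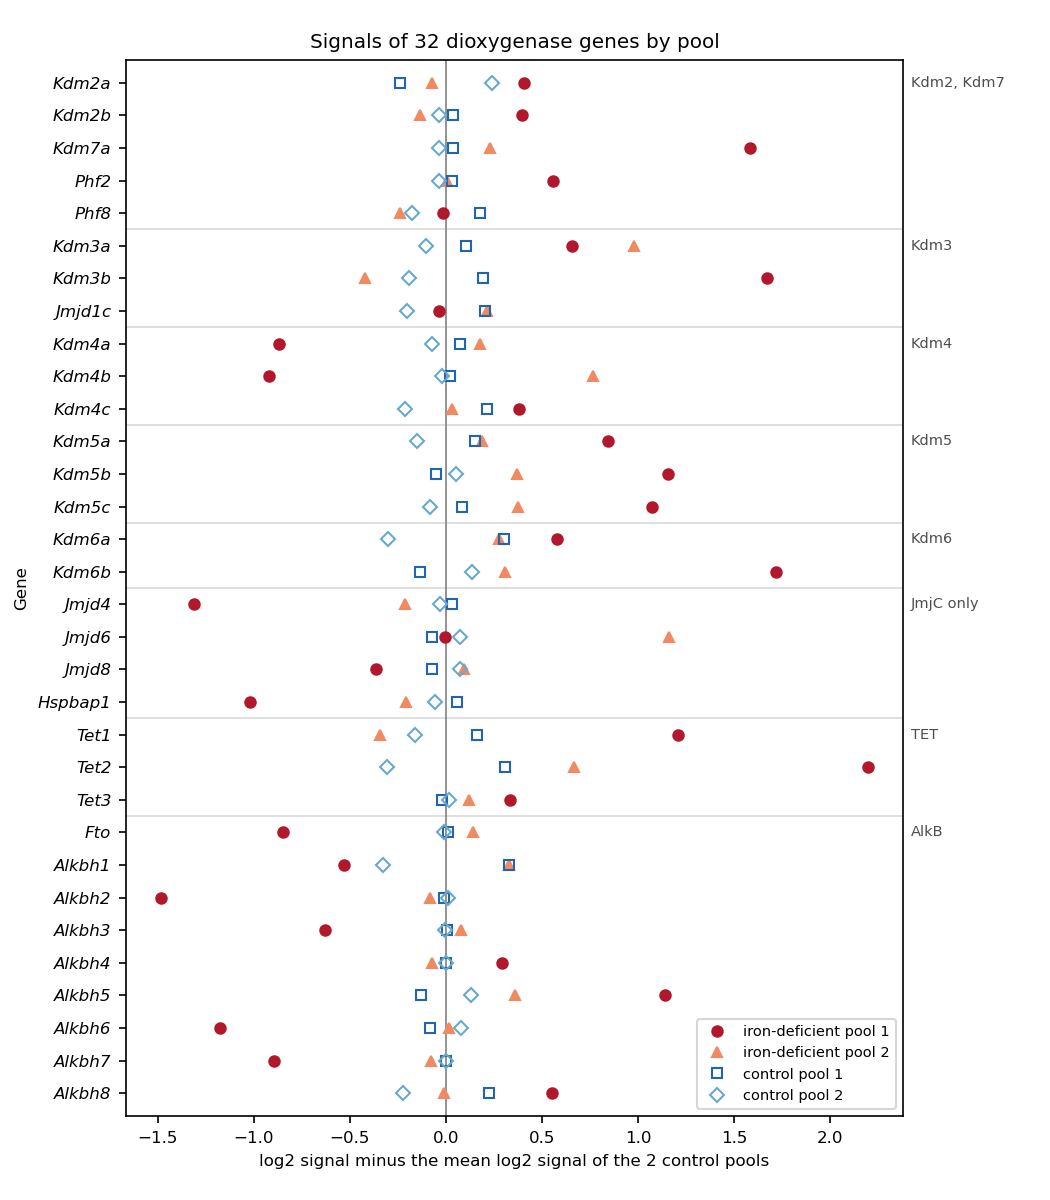
Signals of the 32 tested dioxygenase genes in each pool, on the x axis as log2 signal minus the mean log2 signal of the 2 control pools, with genes on the y axis grouped by family. Each point is 1 pool. Iron-deficient pool 1 ranges from -1.48 (Alkbh2) to 2.19 (Tet2), and iron-deficient pool 2 from -0.42 (Kdm3b) to 1.16 (Jmjd6).

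Kdm3a, which removes mono- and dimethylation from lysine residues of histone H3 that mark silent chromatin, had the smallest p of the 32 genes. Its signals were 997.3 and 1245.3 in the iron-deficient pools, against 680.4 and 588.6 in the control pools (probe set 1426810_at). The groups did not overlap, and of the 9 genes in that position Kdm3a alone was higher in iron-deficient pool 2 than in pool 1. Its log2 difference was 0.82 ± 0.33 (SE), with an unadjusted p of 0.0514 and a limma adjusted p of 0.852 (0.126 to 1 over the alternatives). Under every setting tried it lay between 0.66 and 0.98, and without iron-deficient pool 1 it was 0.98. Its relative Kdm3b showed no such agreement. Kdm3b read 632.4 in iron-deficient pool 1 and 148.7 in pool 2, a 4.25-fold gap, against 227.6 and 173.9 in the control pools. The control signals thus lay between those of the iron-deficient pools, and the log2 difference of 0.62 ± 0.71 (SE) became -0.42 without iron-deficient pool 1. The third relative, Jmjd1c, had signals of 568.5 and 675.3 in the iron-deficient pools and 670.2 and 506.7 in the control pools, which overlapped (log2 difference 0.09 ± 0.34, SE).

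The promoters of Kdm3a, Tet2 and Kdm5b are shown because these had the smallest p-values among the genes that were higher in both iron-deficient pools. Each runs from 250 bases before to 50 bases after a RefSeq start site of the GRCm38.p6 assembly, 5′ to 3′ on the strand of the gene. Capitals mark the letters ACGTG or GCGTG, the core of a hypoxia response element, or their reverse complement. Kdm3a has 3 listed start sites and the window with a core is shown (chr6:71632868-71633167, minus strand). The Tet2 window is chr3:133544341-133544640, minus strand, and the Kdm5b window is chr1:134559928-134560227, plus strand.
Kdm3a: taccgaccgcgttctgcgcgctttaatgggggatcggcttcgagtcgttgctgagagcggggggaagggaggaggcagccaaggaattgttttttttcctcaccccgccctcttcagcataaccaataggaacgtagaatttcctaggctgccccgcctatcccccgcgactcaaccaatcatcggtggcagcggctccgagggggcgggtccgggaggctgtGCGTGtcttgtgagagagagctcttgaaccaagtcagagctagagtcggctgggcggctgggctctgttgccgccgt
Tet2: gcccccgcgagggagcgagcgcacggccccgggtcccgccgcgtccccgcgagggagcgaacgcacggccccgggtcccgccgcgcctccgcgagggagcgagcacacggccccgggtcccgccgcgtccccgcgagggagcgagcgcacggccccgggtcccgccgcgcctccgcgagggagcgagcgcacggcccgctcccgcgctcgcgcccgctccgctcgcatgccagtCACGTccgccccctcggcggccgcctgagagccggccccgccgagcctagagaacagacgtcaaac
Kdm5b: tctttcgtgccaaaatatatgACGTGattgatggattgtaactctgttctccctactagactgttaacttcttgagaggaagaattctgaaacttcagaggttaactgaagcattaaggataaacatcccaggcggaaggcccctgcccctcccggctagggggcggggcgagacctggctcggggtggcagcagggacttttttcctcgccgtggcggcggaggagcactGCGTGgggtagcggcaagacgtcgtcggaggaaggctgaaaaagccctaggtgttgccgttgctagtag
The core in Kdm3a begins 27 bases before the start site and that in Tet2, on the opposite strand, 16 bases before it, while Kdm5b has cores beginning 229 and 19 bases before it. None of these lies inside the longer palindrome CACGTG. Promoter windows were listed for 28 of the 33 genes, and 18 of those 28 (64.3%) held a core in at least 1 window, compared with 46.7% of all 27025 genes with a window. Of the 9 genes higher in both iron-deficient pools, 7 had a window and 5 of them held a core. Jmjd4, Hspbap1, Alkbh2 and Alkbh7, which were lower in both, each had a window with cores (3, 7, 1 and 3). The palindrome CACGTG is counted once on each strand. It held 4 of the 7 cores in Hspbap1 and 2 of the 3 in Alkbh7, so these counts exceed the number of separate sites. A match of letters is a description and not a bound site.

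The Kdm4 enzymes, which remove trimethylation from histone H3, overlapped between diets, and for Kdm4a and Kdm4b the iron-deficient pools lay on opposite sides of the controls. Kdm4b read 103.5 in iron-deficient pool 1 and 333.7 in pool 2, against 199.1 and 193.3 in the control pools (probe set 1424044_at). One iron-deficient pool was thus clearly below and the other clearly above a pair of control pools that nearly coincided. The log2 difference was -0.08 ± 0.60 (SE), and without iron-deficient pool 1 it was 0.77 ± 0.18 (SE, unadjusted p = 0.0227, limma adjusted p = 0.494, 0.0805 to 1 over the alternatives). Without iron-deficient pool 2 it was -0.92 ± 0.18 (SE, unadjusted p = 0.0136, limma adjusted p = 0.0805). Kdm4a followed the same order with a smaller gap in pool 2, at 150.5 and 311 in the iron-deficient pools and 289.5 and 261.1 in the control pools (-0.35 ± 0.44, SE). Kdm4c, at 232.4 and 182.4 in the iron-deficient pools and 207 and 154.3 in the control pools, overlapped between diets (0.20 ± 0.35, SE).

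The products of the Kdm5 genes erase trimethylation at the histone H3 site that marks active promoters. All 3 Kdm5 genes among the 33 were higher in each iron-deficient pool than in either control pool. That position was held by 11.8% of all tested probe sets and 13% with 1 probe set per gene. The Y-linked Kdm5d, outside the 33, was lower in both iron-deficient pools. The second brightest probe set of Kdm5a had the opposite sign, at -0.47. Kdm5b had signals of 2309.3 and 1340.2 in the iron-deficient pools and 1000.4 and 1077.1 in the control pools. The gap between the iron-deficient pools was 1.72-fold, larger than the step from the higher control pool to iron-deficient pool 2. Its log2 difference was 0.76 ± 0.39 (SE, limma adjusted p = 0.852), and 0.37 without iron-deficient pool 1. Kdm5c read 2179.7 and 1340.7 in the iron-deficient pools and 1095.2 and 977.9 in the control pools (0.72 ± 0.38, SE). Kdm5a read 483.4 and 306.9 in the iron-deficient pools and 299.3 and 242.6 in the control pools (0.52 ± 0.38, SE), and its lower iron-deficient signal exceeded the higher control signal by 1.03-fold only. For these genes pool 1 supplied most of the difference, since pool 2 stood 0.19 to 0.37 log2 units above the control mean and pool 1 stood 0.84 to 1.15 above it.

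The Kdm6 enzymes remove methyl groups that Polycomb complexes place on histone H3. Kdm6a had signals of 359.4 and 291.9 in the iron-deficient pools and 297 and 195.2 in the control pools, so that the groups overlapped by the narrow margin between 291.9 and 297 (0.43 ± 0.37, SE). The probe set that stands for Kdm6b, 1447612_x_at, read 8586.6 and 3222.3 in the iron-deficient pools and 2377.1 and 2861.1 in the control pools (1.01 ± 0.53, SE). The difference was 0.31 without iron-deficient pool 1, 1.72 without pool 2 and 0.63 under quantile normalization. By Affymetrix naming, the x in its name marks probes that can also match other transcripts. The other tested probe sets of Kdm6b read between 11.3 and 42.8 and did not separate the diets, so this value is uncertain.

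Kdm5c, Kdm6a and Phf8 are X-linked, and the pools differed in sex-linked transcripts although the labels call every sample female. Kdm5c and Kdm6a are known to escape X inactivation, and both have a Y-linked copy. The copy of Kdm5c, Kdm5d, read 64.2 and 3.1 in the iron-deficient pools and 117.7 and 93.8 in the control pools. Uty, the copy of Kdm6a, read 38.2 and 0.6 in the iron-deficient pools and 51.2 and 62.1 in the control pools, too dim to be tested. Eif2s3y, a Y-linked translation factor gene, read 253.6 and 20.8 in the iron-deficient pools and 594.5 and 600 in the control pools. All 3 Y-linked transcripts were thus lower in both iron-deficient pools, and lowest in pool 2. Xist, the RNA of the inactive X chromosome, read 3427.3 and 1543.3 in the iron-deficient pools and 926.6 and 167.8 in the control pools, while Eif2s3x and Ddx3x, other genes that escape inactivation, differed by 0.63 ± 0.41 and 0.36 ± 0.35 on the log2 scale (SE). Phf8 overlapped between diets, at 310.7 and 265.5 in the iron-deficient pools and 354.2 and 277.7 in the control pools (-0.13 ± 0.33, SE). The part of these sex-linked signals in the differences of Kdm5c and Kdm6a was not tested.

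**Figure D2:**
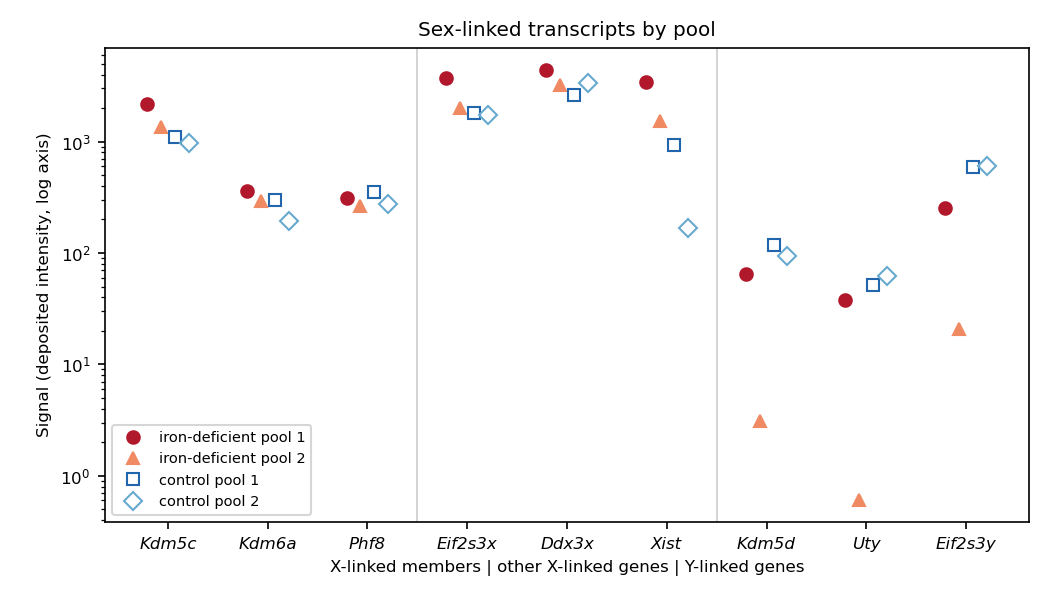
Deposited signal on a log axis for the X-linked dioxygenase genes, other X-linked genes and Y-linked genes, with 1 point per pool. Both iron-deficient pools lie above both control pools for Kdm5c, Eif2s3x and Xist and below them for Kdm5d, Uty and Eif2s3y.

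Among the demethylases that read chromatin through a CXXC or PHD finger, Kdm7a stood out by its spread between the iron-deficient pools. Kdm7a, which acts on dimethylated histone H3 of silent genes, read 929.6 and 363.5 in the iron-deficient pools and 318.4 and 303 in the control pools. Pool 1 was 2.92-fold and pool 2 was 1.14-fold above the higher control pool, and the log2 difference was 0.90 ± 0.51 (SE, unadjusted p = 0.133), and 0.23 without pool 1. Kdm2b, which ties a Polycomb complex to CpG islands, read 2399.5 and 1663.5 in the iron-deficient pools and 1871.1 and 1779.1 in the control pools (0.13 ± 0.35, SE). Kdm2a, its relative at CpG islands, read 522.2 and 374.1 in the iron-deficient pools and 333.9 and 464.2 in the control pools (0.17 ± 0.37, SE). Phf2 read 1461.8 and 999.4 in the iron-deficient pools and 1018.3 and 971.9 in the control pools (0.28 ± 0.35, SE). In all 3, iron-deficient pool 1 was the highest of the 4 pools and the groups overlapped.

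The smaller JmjC proteins act largely on substrates other than histones. Jmjd6, a lysyl hydroxylase tied to splicing factors, read 812.4 in iron-deficient pool 1 and 1819.8 in pool 2, against 776.2 and 856.3 in the control pools (probe set 1420057_at). Pool 1 lay within the control range and pool 2 was 2.13-fold above the higher control pool. The other Jmjd6 probe sets gave the same picture in pool 2, with 1514 and 987.1, against control signals of 630 and 803.4 and of 456.9 and 512.1. The log2 difference was 0.58 ± 0.47 (SE), and 1.16 ± 0.19 without iron-deficient pool 1 (unadjusted p = 0.00852, limma adjusted p = 0.493, which was the lowest over the alternatives). Without iron-deficient pool 2 it was -0.01 ± 0.19 (SE, unadjusted p = 0.981). Jmjd4, which hydroxylates a translation termination factor, read 47.3 and 101.2 in the iron-deficient pools and 120 and 114.9 in the control pools (-0.76 ± 0.45, SE). Hspbap1, named for its binding partner among small heat shock proteins, read 68.2 and 119.5 in the iron-deficient pools and 143.5 and 132.9 in the control pools (-0.61 ± 0.40, SE). For both, the iron-deficient pools were lower without overlap, with pool 1 far below and pool 2 close to the controls. Jmjd8, a protein of the endoplasmic reticulum, read 591.5 and 810.9 in the iron-deficient pools and 722.5 and 800.8 in the control pools (-0.14 ± 0.34, SE).

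The TET genes encode the enzymes that start the removal of DNA methylation. Tet2 had the largest log2 difference of the 32 genes, 1.43 ± 0.59 (SE), with an unadjusted p of 0.0537 and a limma adjusted p of 0.852 (0.0771 to 1 over the alternatives). Its signals were 1599.2 and 554.8 in the iron-deficient pools and 432.3 and 282.3 in the control pools (probe set 1455300_at). The groups did not overlap, and pool 1 was 2.88-fold above pool 2. Without iron-deficient pool 1 the difference was 0.67. A dimmer Tet2 probe set read 319.6 and 150.5 in the iron-deficient pools and 184.6 and 63.4 in the control pools, where the groups overlapped (1.02 ± 0.65, SE). Tet1 read 457.6 and 156.4 in the iron-deficient pools and 221.6 and 177.7 in the control pools, which placed the control pools between the iron-deficient ones (0.43 ± 0.57, SE). One of its dimmer probe sets, 1429448_s_at, read 110.4 and 73.8 in the iron-deficient pools and 45.8 and 46.5 in the control pools (0.97 ± 0.36, SE), and the other 2 differed by -0.24 and -0.01. Tet3 was the steadiest of the family, with 151.1 and 130.3 in the iron-deficient pools and 118.5 and 121.5 in the control pools (0.23 ± 0.32, SE).

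The 2 AlkB proteins that remove N6-methyladenosine from RNA lay on opposite sides of the controls in iron-deficient pool 1. Alkbh5 read 5413.6 and 3151.6 in the iron-deficient pools and 2242 and 2683.9 in the control pools (0.75 ± 0.40, SE), without overlap. The difference was 0.36 without iron-deficient pool 1, 1.14 without pool 2 and 0.43 under quantile normalization. Fto read 404.5 and 802.5 in the iron-deficient pools and 733.8 and 722.2 in the control pools (-0.35 ± 0.43, SE), with pool 1 below and pool 2 above both controls. A dimmer Fto probe set read 16.5 and 31.4 in the iron-deficient pools and 43.9 and 39.3 in the control pools (-0.87 ± 0.42, SE). There both iron-deficient pools were below both controls. The difference between the genes was not tested.

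The DNA repair members Alkbh2 and Alkbh3, which reverse alkylation damage, were low in iron-deficient pool 1. Alkbh2 read 85.3 and 225.1 in the iron-deficient pools and 236.7 and 239.6 in the control pools (-0.78 ± 0.52, SE), so that pool 1 was at 0.36 of the lower control signal while pool 2 lay just under the controls. Alkbh3 read 592.2 and 965.9 in the iron-deficient pools and 917.9 and 911.9 in the control pools (-0.28 ± 0.38, SE). The mitochondrial protein Alkbh7 read 432.1 and 762.6 in the iron-deficient pools and 804.2 and 805.5 in the control pools (-0.49 ± 0.40, SE), and Alkbh6, whose substrate is not well known, read 212.7 and 486.2 in the iron-deficient pools and 455 and 508.8 in the control pools (-0.58 ± 0.48, SE). These 4 genes shared a low value in pool 1 and a pool 2 value near the controls. Of the tRNA-modifying members, Alkbh1 read 140.1 and 253.3 in the iron-deficient pools and 254.1 and 160.8 in the control pools (-0.10 ± 0.45, SE), and Alkbh8 read 449.4 and 304.3 in the iron-deficient pools and 357.7 and 261.8 in the control pools (0.27 ± 0.38, SE). Alkbh4, which demethylates actin, read 450.7 and 349.9 in the iron-deficient pools and 368.5 and 368.2 in the control pools (0.11 ± 0.33, SE). Its probe set, 1429850_x_at, carries the x that marks probes able to match other transcripts. The Alkbh4 probe set without an x, 1453301_a_at, differed by 0.31. In all, pool 1 lay below both control pools for 6 of the 9 AlkB genes and above both for 3. Over all tested probe sets, 52.6% lay below and 34.9% above in that pool, and with 1 probe set per gene 60.1% and 30.2%.

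Signals of the 32 genes had a median absolute log2 difference of 0.78 between the iron-deficient pools, compared with 0.16 between the control pools. The wider spread was a feature of the arrays as a whole: over all tested probe sets log2 values of the iron-deficient pair differed with an SD of 0.964, against 0.504 for the control pair. Iron-deficient pool 1 lay above both control pools for 18 of 32 genes and below both for 11. In that pool 34.9% of all tested probe sets lay above and 52.6% below, and 30.2% and 60.1% with 1 probe set per gene. Iron-deficient pool 2 lay above for 16 and below for 9, where 31.3% and 40.5% of all tested probe sets lay above and below, and 37.8% and 38.4% with 1 probe set per gene. The pools were on opposite sides of both controls for 9 genes, namely Kdm2b, Kdm3b, Kdm4a, Kdm4b, Jmjd8, Tet1, Fto, Alkbh3 and Alkbh4, against 28.4% of all tested probe sets and 31.3% with 1 probe set per gene, so this count is near the background. The genes with the largest departures in pool 2 were Jmjd6 (1.16), Kdm3a (0.98), Kdm4b (0.77) and Tet2 (0.67), in log2 units above the control mean. Of these, Kdm3a and Tet2 were also higher in pool 1, at 0.66 and 2.19.

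**Figure D3:**
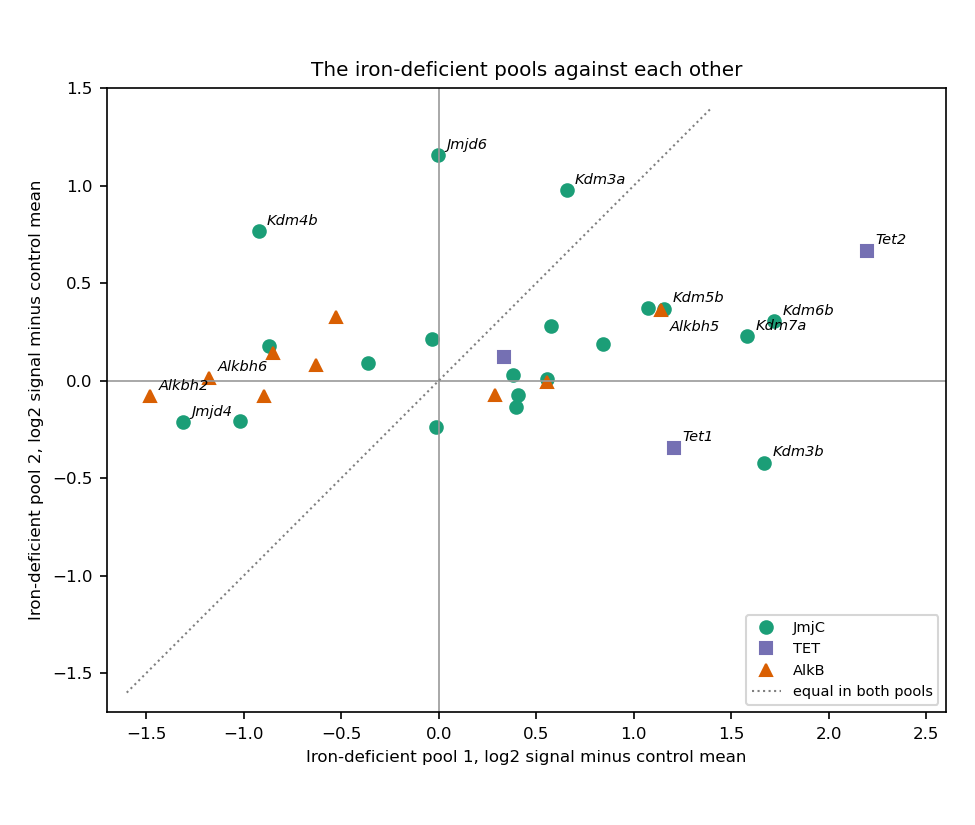
Each of the 32 genes by its log2 signal minus the control mean in iron-deficient pool 1 (x axis) and pool 2 (y axis), coloured by family. Most points spread along the x axis, from -1.48 to 2.19, while pool 2 values lie between -0.42 and 1.16. Kdm4b lies below the controls in pool 1 and above them in pool 2.

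Other probe sets of the same genes gave a check on single values. Of the 91 probe sets of the 33 genes 76 were tested, and 23 genes had more than 1. For 11 of the 23, all tested probe sets had the same sign, and for 12 at least 1 had the opposite sign to the brightest. Kdm7a was the same in sign over 5 probe sets, from 0.03 to 1.89, and Kdm5b over 4, from 0.39 to 0.76. Kdm6a (0.43 to 0.65), Alkbh5 (0.75 to 0.87) and Tet2 (1.02 to 1.43) also kept their sign, as did Fto on the negative side (-0.87 to -0.35). Among 6 probe sets of Kdm5c, 5 were positive and 1 was at -0.27. Hspbap1 disagreed most, since its brightest probe set differed by -0.61 and a dimmer one, which read 98.6 and 11.6 in the iron-deficient pools and 10.4 and 8.3 in the control pools, by 1.86. Kdm3a, Kdm4b, Kdm4c, Tet3, Alkbh2, Alkbh6, Alkbh7, Jmjd8 and Kdm4a had a single tested probe set and no such check.

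**Figure D4:**
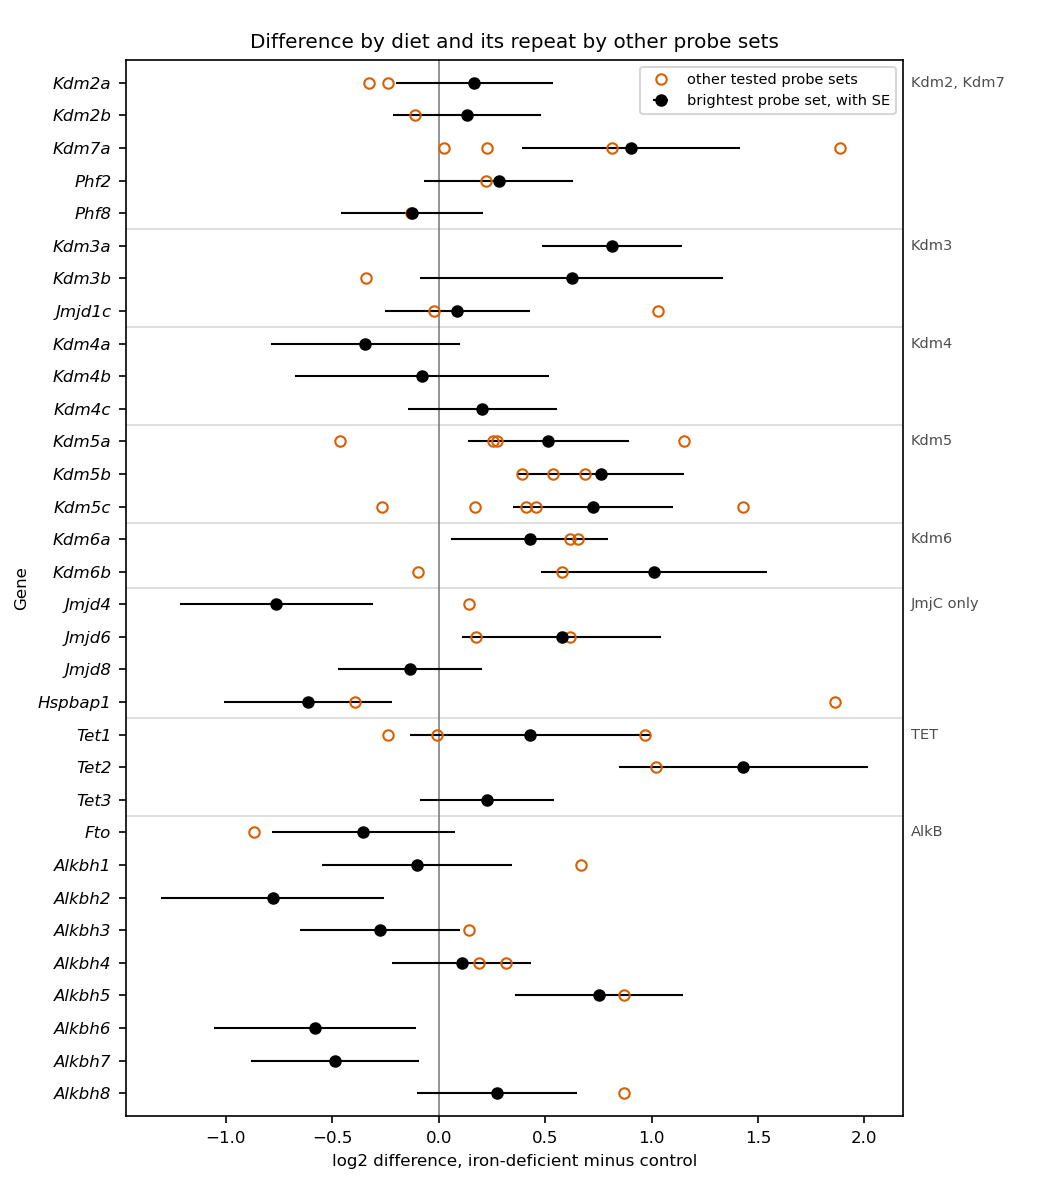
Log2 difference, iron-deficient minus control, for the brightest probe set of each gene (black, with its standard error) and for its other tested probe sets (open circles). Kdm5b, Kdm7a, Tet2 and Alkbh5 lie above 0 with all their probe sets, while Hspbap1 spans -0.61 to 1.86.

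None of the genes that work beside or against these enzymes passed the limma test over all probe sets. Their counts of genes higher or lower without overlap stand against 13% and 25.9% of all gene symbols, at 1 probe set per gene. Of the 26 tested histone methyltransferase genes, 6 were higher and 1 was lower in both pools of the iron-deficient diet (median 0.07). Ezh1, a Polycomb methyltransferase, read 188.7 and 217 in the iron-deficient pools and 147.1 and 105 in the control pools (0.70 ± 0.35, SE). Of the histone demethylases that use a flavin in place of iron and their partners, 2 of 5 were higher and 2 lower. Kdm1b read 108.3 and 230.6 in the iron-deficient pools and 438.1 and 309.3 in the control pools (-1.22 ± 0.48, SE, unadjusted p = 0.0461). The corepressor Rcor2 differed by 0.90 ± 0.44 and Kdm1a by 0.16 ± 0.31 on the log2 scale (SE). Other JmjC proteins outside the 33 had a median of -0.32 over 7 tested genes, with 1 higher and 4 lower in both; the Y-linked Kdm5d belongs to this list. The 16 tested subunits of Polycomb complexes, or of complexes that methylate histone H3 at active genes, had a median of -0.09, with 3 higher and 4 lower. The lower ones came from both kinds, so these values are not those of Polycomb alone. The 11 genes of DNA methylation and its repair had a median of 0.03, with 3 higher and 2 lower. Among these, Ogt, which attaches N-acetylglucosamine to proteins and binds TET proteins, read 2145.1 and 1412.6 in the iron-deficient pools and 1105.5 and 1027.2 in the control pools (0.71 ± 0.36, SE). Dnmt1, the maintenance methyltransferase, read 4871.7 and 2615.8 in the iron-deficient pools and 1906.7 and 2397.6 in the control pools (0.74 ± 0.42, SE). The 14 genes that write or read RNA methylation, or that partner AlkB proteins, had a median of 0.05. Of these, 1 was higher and 2 were lower, among them the writer subunit Rbm15b. It read 108 and 189.4 in the iron-deficient pools and 323.9 and 304.6 in the control pools (-1.14 ± 0.39, SE, unadjusted p = 0.0311). Of 20 genes of 2-oxoglutarate metabolism, 2 were higher and 6 lower without overlap (median -0.19). Idh3a, which makes 2-oxoglutarate in mitochondria, read 601.5 and 732.4 in the iron-deficient pools and 1224 and 1087.5 in the control pools (-0.80 ± 0.32, SE, unadjusted p = 0.0527).

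The pools also differed in genes of the hypoxia response and in markers of other cells. Of all gene symbols, at 1 probe set per gene, 13% were higher and 25.9% lower without overlap. By limma, 1.26% passed an unadjusted p of 0.05 as higher and 3.32% as lower. Of 28 tested hypoxia response genes, 24 were higher without overlap and 0 lower, with a median of 1.24. Of these 28, 17 passed an unadjusted p of 0.05 but none the adjusted limma test. Of 11 tested proximal tubule markers, all were lower in both iron-deficient pools, with summed signals of 1647.3 and 2748.7 there and 6378.1 and 6339.9 in the control pools. In bulk tissue, fewer cells of a type and less RNA per cell cannot be told apart. Erythroid markers summed to 8767.6 and 6190.5 in the iron-deficient pools and 2735.3 and 3026.1 in the control pools (5 of 7 tested higher in both, 1 lower). Leukocyte markers summed to 3507.3 and 3083.3 in the iron-deficient pools and 1862.7 and 2220.5 in the control pools (5 of 11 higher in both, 3 lower). The higher ones were Mpo, S100a8, S100a9, Ngp and Camp, and the lower ones Ptprc, Adgre1 and Coro1a. The median log2 difference of the tested leukocyte markers was -0.16, so the sums do not speak for the whole list. Muscle markers summed to 660.6 and 3700.6 in the iron-deficient pools and 867.2 and 646.7 in the control pools, and liver markers to 312.5 and 3153.9 in the iron-deficient pools and 1622.5 and 1463.6 in the control pools. Both were therefore highest in iron-deficient pool 2, the pool in which Jmjd6 and Kdm4b were high. Adrenal markers summed to 406.4 and 170.1 in the iron-deficient pools and 209.7 and 181.1 in the control pools (0 of 5 tested higher in both, 1 lower). The median log2 difference of the tested adrenal markers was -0.01, so the high sum in pool 1 does not speak for the whole list. Of the gonad list the germ cell gene Dazl read 3.6 and 3.5 in the iron-deficient pools and 3.5 and 9.6 in the control pools, and Sox9, which kidney epithelium also expresses, was the only tested gene (3529 and 409.1 in the iron-deficient pools, 342.1 and 291.7 in the control pools). The part of these cell types in the dioxygenase signals was not tested.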

How the data were processed

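RNA from 4 pools, 2 per maternal diet, was labelled with biotin and hybridised to 1 array each, per the labels' protocols. The authors deposited 1 linear intensity for each probe set on each array. Each array has the same mean of 250.0 after trimming 2% of values at each end. The submitters' processing notes name RMA, but the deposited intensities are not logarithmic and their distributions differ, so the program behind them counts as not given in the sources used here.

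Values were turned to log2 after zeros were set to 0.1. Control probe sets (64) and the lowest 40% of the other 45037 by mean log2 value (signal under 17.3) were left out. Diet was tested with limma 3.58.1 in R 4.3.3 (lmFit, eBayes, two-sided) with no other term, residual degrees of freedom of 2, prior degrees of freedom of 3.49, and p adjusted by Benjamini-Hochberg across the 27022 tested probe sets. The fitting step was checked on simulated data. Errors after ± are standard errors. Figures were drawn with matplotlib 3.10.9.

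Symbols came from the platform annotation: 34945 probe sets had 1 symbol, 932 several and 9160 none. The members and lists were chosen with earlier results of these data known. The rule for named genes takes all 33 members, up to 3 genes of smallest p per companion list, and a fixed set of sex-linked genes. Hypoxia and cell markers are given as counts and sums. The named leukocyte genes, Dazl and Sox9 were chosen after their values were seen. Of the columns, 0 were left unmapped. Alternatives were no filter, the lowest 60% left out, quantile normalization, median centring, an offset of 16, an intensity trend, the replicate number as a block, 1 probe set per gene, and each pool left out in turn.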

Additional observations from a re-analysis of the deposited data

Results flagged for a closer look

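The array's own control probe sets, which enter no comparison, held signals in the iron-deficient pools more than 2 times the higher control pool. For 18S ribosomal RNA, iron-deficient pool 1 read 595.7 at the 3′ part, against 142.7 in iron-deficient pool 2 and 171.8 and 140.5 in the control pools, and 2144.5 at the 5′ part, against 243 in iron-deficient pool 2 and 291.9 and 289.4 in the control pools. For the transferrin receptor, the 3′ part read 303.1 and 117.1 in the iron-deficient pools and 54 and 48.4 in the control pools, and the middle part 84.9 and 83.8 in the iron-deficient pools and 33.4 and 34 in the control pools.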

How the results depend on the processing

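No setting gave a dioxygenase gene an adjusted p under 0.05. At an unadjusted limma p of 0.05, 2 genes were higher with the lowest 60% left out, an offset of 16, an intensity trend or 1 probe set per gene (Kdm3a and Tet2 each time). In these settings 1.04%, 1.04%, 1.09% and 1.69% of all probe sets tested passed as higher. The count was 1 under quantile normalization (Kdm3a) and 1 under median centring (Tet2), where 1.57% and 2.79% of all tested probe sets passed as higher. The pool numbers give 2 pairs, whose deviations correlated at 0.36, which does not show that they pair the samples. With the replicate block 2 genes passed as higher, Kdm6b and Tet2, where 4.54% of all tested probe sets did so. Genes separated as higher and lower numbered 9 and 4, but 11 and 3 under quantile normalization and 11 and 1 under median centring. In the main fit 11.8% and 25% of all tested probe sets were separated as higher and lower, and these shares were not counted under the other normalizations. With each pool left out in turn, 0 to 10 genes passed as higher and 0 to 9 as lower, 11 to 18 were separated as higher and 5 to 11 as lower, and the median was 0.10 to 0.36. The highest counts came without iron-deficient pool 2, where 12.8% of all tested probe sets passed as higher and 26.2% as lower, and without pool 1 the separated genes were 16 and 9. A lone pool was then assumed to vary like the other diet's pair, and separation needs fewer pools. Of all tested probe sets, 34.9% were separated as higher and 52.6% as lower with iron-deficient pool 1 alone against both control pools. With iron-deficient pool 2 alone these shares were 31.3% and 40.5%. Such shares were not counted without a control pool. Quantile normalization turned the sign of Kdm2b (-0.04), Phf8 (0.04), Kdm4b (0.07) and Alkbh1 (0.06). Leaving out a pool turned the sign of 17 genes, with ranges for Kdm2a (-0.07 to 0.41), Kdm2b (-0.13 to 0.40), Phf8 (-0.30 to 0.05), Kdm3b (-0.42 to 1.67), Jmjd1c (-0.11 to 0.29), Kdm4a (-0.87 to 0.18), Kdm4b (-0.92 to 0.77) and Kdm4c (-0.01 to 0.42). The others were Jmjd6 (-0.01 to 1.16), Jmjd8 (-0.36 to 0.09), Tet1 (-0.34 to 1.21), Fto (-0.85 to 0.14), Alkbh1 (-0.53 to 0.33), Alkbh3 (-0.63 to 0.08), Alkbh4 (-0.07 to 0.29), Alkbh6 (-1.18 to 0.02) and Alkbh8 (-0.01 to 0.55). Other probe sets had the opposite sign for Kdm2a (-0.24 and -0.33), Kdm2b (-0.11), Kdm3b (-0.34), Jmjd1c (-0.02), Kdm5a (-0.47) and Kdm5c (-0.27). They did so also for Kdm6b (-0.10), Jmjd4 (0.14), Hspbap1 (1.86), Tet1 (-0.24 and -0.01), Alkbh1 (0.67) and Alkbh3 (0.14). Without iron-deficient pool 1 the differences of the separated genes other than Kdm3a shrank by over 1.5 times: Kdm5a 0.19, Kdm5c 0.37, Tet3 0.12, Jmjd4 -0.21, Hspbap1 -0.21, Alkbh2 -0.08, Alkbh7 -0.08, Kdm7a 0.23, Kdm5b 0.37, Kdm6b 0.31, Tet2 0.67 and Alkbh5 0.36. Under quantile normalization Tet3 was 0.40. The causes were not tested. Over all tested probe sets the calls at an adjusted p of 0.05 numbered 0, but 201 under median centring, 479 with the replicate block, 75 without control pool 1, 31 without control pool 2, and 8 with 1 probe set per gene.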
